A study of Mus musculus with 3 samples.

Results

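A panel of 35 type I interferon-stimulated genes (ISGs) was followed through the type 1 conventional dendritic cells (cDC1s) of MCA205 LA-OVA tumours. They were chosen by name, with earlier results of these data known, as genes known to rise in cells that sense interferon alpha or beta. Of these, 33 were measured among the 32285 genes of the count matrices, and *Mx1* and *Mx2* are not analysed here. Interferons alpha and beta bind a shared receptor made of IFNAR1 and IFNAR2, whose kinases JAK1 and TYK2 pass the signal to transcription factors that bind interferon-stimulated response elements in gene promoters. The induced proteins hinder viral RNA, protein synthesis and budding, sense foreign nucleic acids, or feed back on the pathway. In cDC1s, which cross-present antigen to CD8+ T cells, type I interferon sensing is known to support the priming of anti-tumour T cells.

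The cells came from a droplet-based scRNAseq experiment on tumours of MCA205, a mouse fibrosarcoma line, here with LA-OVA as antigen, harvested on day 5. Pre-cDCs, cDC1s and cDC2s were sorted and mixed, from C57BL/6J mice (WT), from mice without secreted gelsolin (*sGsn-/-*, labelled sGSN-/-) and from mice that also lack DNGR-1 (*sGsn-/- Clec9a-/-*), all on the C57BL/6J background. Males and females of 6 to 20 weeks were used and tumours were pooled by genotype, so that each genotype has 1 library and no replicate. Levels are given as CPM, the unique molecular identifiers (UMIs) of a gene scaled to all UMIs of a group of cells, and a mean ± SD over the 3 libraries (n = 3) also holds any difference between genotypes.

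The matrices held 176578136 UMIs over 12763 barcodes for WT, 109270958 over 8173 for *sGsn-/-* and 113411930 over 9273 for *sGsn-/- Clec9a-/-*. The authors' table places 5806 barcodes in 12 cDC1 clusters, numbered 0 to 11, with 2316, 1712 and 1778 cells and a median of 14092, 14150 and 12231 UMIs per cell in the same order. Over all cDC1s the 33 ISGs summed to 84490, 67917 and 56020 UMIs, and to 2586, 2882 and 2609 CPM. Clusters 4 and 1 are called early here, clusters 0, 2, 3, 5 and 6 resting (3499 cells) and clusters 7, 8, 9 and 10 activated, and cluster 11 is rich in mitochondrial transcripts. Libraries shared between 26 and 28 barcode sequences in pairs, at most 0.330% of a library, and 2 or 3 per pair among cDC1s.

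*Clec9a*, the gene deleted in the third genotype, was counted at 168 CPM in WT cDC1s, 168.5 CPM in *sGsn-/-* cDC1s and 0.0931 CPM (2 UMIs) in *sGsn-/- Clec9a-/-* cDC1s, as labelled. The counts do not separate secreted gelsolin from the other products of its gene, so the *sGsn-/-* label was not checked. The cDC1 label was checked on *Xcr1*, at 205, 223 and 233 CPM, against the cDC2 genes *Itgam* and *Sirpa*, at 8.63 ± 0.959 and 3.09 ± 0.510 CPM. Cluster 7 (422 cells) held *Xcr1* at 250.5 ± 5.51 CPM and cluster 10 (76 cells) at 179 ± 23.7 CPM. In sum, the 6 cDC1 markers stood at 638, 403 and 609 CPM in cluster 10, against 912, 941 and 959 CPM at rest, and 25 of 76 cells (32.9%) held 2 or more of them, against 80.9% at rest. In cluster 8 (255 cells) they stood at 278, 320 and 495 CPM, with 50 cells (19.6%), and in cluster 4 (512 cells) at 240, 224 and 326 CPM, with 78 cells (15.2%). The cDC1 label was thus weaker in clusters 10, 8 and 4 than at rest. The cDC2 markers summed higher than those of cDC1s in the *sGsn-/-* library of cluster 10 and in all 3 libraries of cluster 4. Cells with 2 or more of 6 cDC2 markers made up 6 of 422 cells (1.42%) in cluster 7 and 15 of 76 (19.7%) in cluster 10, against 37 of 3499 (1.06%) among resting cDC1s. The summed cDC2 markers in cluster 10 stood at 365, 754 and 211 CPM, with *Cd209a* the most abundant and *Clec4a4* at 0, so the main ISG counts for this cluster are given with and without cells carrying markers of another class. Macrophage markers summed to 92.5, 66.3 and 102 CPM in cluster 7, with 7 of 7 detected, and to 63.8, 51.6 and 80.3 CPM in cluster 10, with 5 of 7 detected, against 29.7, 21.2 and 23.9 CPM at rest. *Fcgr1* was the most abundant of them in both clusters, and their part in the ISG levels was not tested.

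The summed ISG level was highest in cluster 7, at 9656 CPM in the WT, 10273 CPM in the *sGsn-/-* and 9247.5 CPM in the *sGsn-/- Clec9a-/-* library (9725.5 ± 517). Cluster 10 followed at 4677, 3841 and 4257.5 CPM (4259 ± 418), and cluster 8, the Ccr7-rich activated cells, at 2994, 3576 and 2428 CPM (2999 ± 574). The libraries of these clusters did not overlap, so the order 7, 10, 8 was the same in each pool. Resting cDC1s stood at 2109.5, 2149 and 2055 CPM (2105 ± 47.2). Below cluster 8 the means ran from cluster 6 (2339 ± 149 CPM) through clusters 2 (2309 ± 141.5), 9 (2260.2 ± 414), 4 (2134 ± 176), 3 (2030 ± 86.1), 0 (2027 ± 37.0), 5 (1910.5 ± 49.4) and 11 (1637 ± 213) to cluster 1 (1454 ± 63.0 CPM). Neighbours in this order lay within the sum of their SDs except clusters 7 and 10, 10 and 8, 0 and 5, and 5 and 11. The makeup of the sum differed as well. *Isg15* gave 14.3% of ISG UMIs in cluster 7, 7.74% in cluster 10, 20.9% in cluster 8 and 4.01% in resting cDC1s. The share of *Ifi205* ran the other way, at 11.3% in cluster 7, 23.0% in cluster 10, 9.42% in cluster 8 and 24.7% in resting cDC1s.

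**Figure D1:**
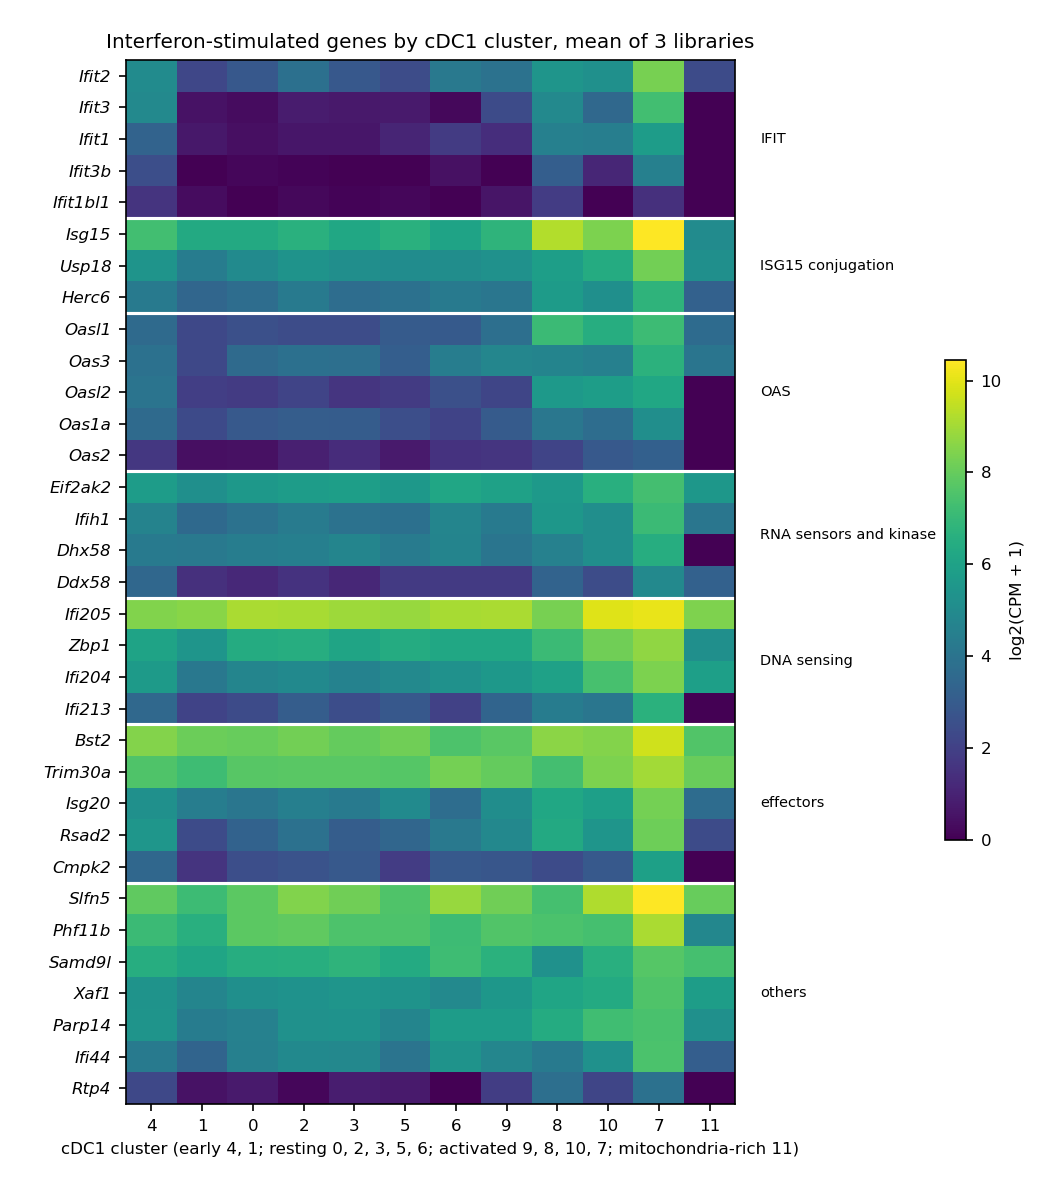
Levels of the 33 measured interferon-stimulated genes by role, down the side, in the 12 cDC1 clusters along the bottom, as log2(CPM + 1) of the mean CPM of 3 libraries. Most genes are brightest in cluster 7, where *Isg15* reached 1394 CPM, while *Ifi205*, *Bst2*, *Trim30a* and *Slfn5* are bright in many clusters.

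Since the clusters were called by the authors on the same counts, the differences between clusters describe cells and are no test. The panel and the later gene lists were also chosen with earlier results of these data known. Shares of all genes are thus given as a background only. A gene was counted as higher in cluster 7 where it stood at least 2-fold above resting cDC1s in all 3 libraries, with a floor of 3 UMIs per library under the resting value. By this rule 24 of the 25 ISGs at 10 CPM or more over all cDC1s were higher, against 2.5% of the 6438 genes at that level. Without the filter 32 of all 33 measured ISGs were higher, against 2.03% of 18142 genes with a UMI. The median log2 fold of the 33 ISGs was 3.07 and that of all 6438 genes -0.11. The exception was *Samd9l* (ENSMUSG00000047735, chromosome 6), an antiviral factor, at 245, 202 and 178 CPM in cluster 7, against 106.5, 93.0 and 95.1 CPM in resting cDC1s, which is 2.30-fold, 2.18-fold and 1.88-fold.

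The IFIT genes, whose proteins bind viral RNA with foreign 5′ ends or restrict its translation, lie together on chromosome 19 and all 5 were higher in cluster 7. *Ifit2* was counted at 267, 364 and 309 CPM in cluster 7 against 9.56, 8.18 and 8.59 CPM in resting cDC1s. *Ifit3* (ENSMUSG00000074896) was at 133, 166 and 164 CPM against 0.900, 0.223 and 0.448 CPM, the last 3 values from 19, 3 and 6 UMIs. *Ifit3* was thus close to absent at rest and its fold ran from 148 to 743 over the libraries, whereas that of *Ifit2* ran from 27.9 to 44.5. *Ifit1* was at 62.7, 38.4 and 60.4 CPM in cluster 7 and below 1 CPM in resting cDC1s of each library. *Ifit3* and its neighbour *Ifit3b* (ENSMUSG00000062488) encode transcripts 98.0% identical over 1697 aligned bases, with 47.0% of 60-base stretches in common. The UMI counts of both are thus uncertain. *Ifit3b* stood at least 142, 99.8 and 114 times above the floor of the resting value, and *Ifit1bl1*, with 1, 4 and 5 UMIs in cluster 7, at least 3.09, 8.5 and 12.7 times.

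Of the ISG15 conjugation genes all 3 were higher in cluster 7. *Isg15* (ENSMUSG00000035692, chromosome 4, 156199424 to 156200818, minus strand), a ubiquitin-like protein that is attached to other proteins, stood at 1341, 1542 and 1299.5 CPM against 83.5, 90.7 and 79.9 CPM at rest. Its fold was 16.1, 17.0 and 16.3, nearly the same in each library. *Usp18*, the protease that removes ISG15 and damps receptor signalling, was at 281.5, 340.5 and 275 CPM against 32.2, 32.9 and 38.6 CPM. *Herc6*, the mouse ligase that attaches ISG15, was at 112, 112 and 106 CPM against 15.8, 13.5 and 14.1 CPM. Enzymes for adding and for removing ISG15 were thus both higher.

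The OAS family makes or resembles the enzymes that activate RNase L on double-stranded RNA, and its 5 measured members on chromosome 5 were all higher in cluster 7. *Oasl1* stood at 124, 171 and 127 CPM against 5.30, 5.13 and 4.93 CPM, and *Oasl2* at 71.5, 75.8 and 72.4 CPM against 2.89, 3.05 and 2.54 CPM. *Oas3* was at 106, 86.7 and 117 CPM against 11.6, 10.4 and 15.2 CPM. The 2 Oasl genes had larger folds of the mean (27.5 and 25.9) than *Oas3* (8.34) or *Oas1a* (5.47). *Gm13822* overlaps *Oasl1* and *Gm43068* overlaps *Oas2*, which rested on 52 UMIs in cluster 7.

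All 4 genes of the RNA sensors and the RNA-dependent kinase were higher too. *Eif2ak2*, the kinase PKR that stops translation on double-stranded RNA, was at 171, 162 and 142.5 CPM in cluster 7, against 56.5, 50.8 and 49.6 CPM at rest. *Ifih1*, which encodes the sensor MDA5, was at 114, 169 and 130 CPM against 15.3, 17.99 and 15.8 CPM. *Dhx58*, which encodes LGP2 and overlaps *Dhx58os*, was at 90.8, 105 and 77.5 CPM against 20.8, 23.5 and 21.7 CPM. *Ddx58*, which encodes RIG-I, had the largest fold of the mean in this group (16.8), on 177 UMIs in cluster 7 and 79 at rest.

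All 4 genes of DNA sensing were higher, with folds of the mean from 2.11 to 19.1. *Ifi205* (ENSMUSG00000054203, chromosome 1, 174011998 to 174031810, minus strand), of the PYHIN family of DNA-binding proteins, was already at 513, 571 and 476 CPM in resting cDC1s and at 1140, 1146 and 1008 CPM in cluster 7. Its fold was 2.22, 2.01 and 2.12, close to the limit of 2. *Ifi204*, of the same family, rose from 25.9, 27.2 and 30.3 CPM to 328, 370 and 308 CPM, a fold of the mean of 12.1, and *Ifi213* had one of 19.1. *Zbp1*, a sensor of Z-form nucleic acids that can start necroptosis, was at 398, 425 and 415.5 CPM against 75.8, 83.4 and 86.2 CPM. Transcripts of *Ifi204* and *Ifi205* are 88.5% identical over 1585 aligned bases, with 1.16% of 60-base stretches in common. Reads from those stretches may not tell these genes apart.

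The antiviral effectors include *Bst2*, or tetherin, which holds budding virus at the membrane, at 792, 833 and 838 CPM in cluster 7 against 257, 278 and 257 CPM at rest. *Trim30a* stood at 565, 501 and 462 CPM against 230.0, 216 and 220 CPM, and *Isg20*, an exonuclease, at 289, 309 and 321 CPM against 16.4, 20 and 23.2 CPM. *Rsad2*, which encodes viperin, was at 253, 275 and 321.5 CPM against 9.80, 11.9 and 10.2 CPM. *Bst2* and *Trim30a* were thus abundant at rest and moved by 3.11 and 2.29 times the resting mean, whereas *Rsad2* moved by 26.7 times. *Cmpk2*, the neighbour of *Rsad2* on chromosome 12, moved by 11.8 times.

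Of the remaining 7 genes 6 were higher. *Slfn5* (ENSMUSG00000054404, chromosome 11), of the Schlafen family, was at 1391, 1453 and 1222 CPM in cluster 7 against 291.5, 280 and 275 CPM at rest, and overlaps *Slfn5os*. *Phf11b* was at 557, 601 and 502 CPM against 207.5, 201 and 211 CPM. *Parp14*, an ADP-ribosyltransferase overlapped by *Gm49730*, moved by 5.33 times the resting mean, *Ifi44* by 6.88, *Xaf1* by 4.94 and *Rtp4* by 27.7, the last on 85 UMIs in cluster 7 and 24 at rest.

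Cluster 10, the cells rich in *Cxcl9* (4745, 4982 and 4770 CPM), carried part of this pattern. At least 2-fold above resting cDC1s in all libraries were 6 of the 25 ISGs at 10 CPM, against 2.25% of genes, and 7 of all 33, against 1.66%. These were *Isg15*, *Oasl1*, *Oasl2*, *Oas2*, *Zbp1*, *Ifi204* and *Parp14*, so 0 of 5 IFIT genes and 0 of 5 effectors. *Ifit2* (folds of 6.30, 1.58 and 4.28) fell short of 2-fold in the *sGsn-/-* library alone. So did the effectors *Isg20* (4.96, 1.61 and 2.59) and *Rsad2* (8.68, 1.63 and 2.31). *Isg15* stood at 354, 309 and 325 CPM and *Zbp1* at 230.3, 329 and 321 CPM. *Phf11b*, at 167, 142 and 187 CPM, lay below its resting level in each library. The median log2 fold of the 33 ISGs was 1.32, and that of all genes -0.02. Without cells carrying markers of another class 10 of 25 were higher, against 2.31% of genes, and without the *sGsn-/-* library 12 of 25, against 3.22%. Each library of cluster 10 held 21 to 28 cells and 282206 to 310344 UMIs, and the call of *Oas2* rested on 1, 4 and 1 UMIs. The part of the cells with cDC2 markers in these counts was not tested beyond leaving them out.

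Set directly against cluster 7, cluster 10 had no ISG that was 1.5-fold higher in all libraries, 0 of 25 at 10 CPM against 3.46% of genes and 0 of 33 against 2.46%. The reverse held for 17 of 25, against 3.73%, and for 21 of 33, against 1.39%. Without cells carrying markers of another class the counts at 10 CPM were 0 and 18 of 25, and the shares of all genes were not counted there. The 21 of 33 higher in cluster 7 took in all 3 genes of ISG15 conjugation and 4 of 5 effectors. They also took in the RNA sensors *Ifih1*, *Ddx58* and *Dhx58* but not the kinase gene *Eif2ak2*. Of the genes of DNA sensing they took in 1 of 4, and of the OAS genes 2 of 5. The median log2 ratio of cluster 10 to cluster 7 was -1.62 over the 33 ISGs and 0.07 over all genes. Composition scaling (TMM) moved the median of all genes by -0.19 in this ratio and by -0.12 for cluster 10 against resting cDC1s, and the ISG medians became -1.80 and 1.21.

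The ratio of cluster 10 to cluster 7 ran over a wide range. *Ifi205* lay at the top, with 1067, 973 and 890.3 CPM in cluster 10, which is 0.936, 0.849 and 0.884 of cluster 7. *Parp14* followed, at 142, 135 and 181 CPM in cluster 10 against 184, 182 and 161 CPM in cluster 7. Both were thus nearly as high in cluster 10 as in cluster 7. At the other end stood *Ifit3*, with 8, 1 and 0 UMIs in cluster 10, a ratio of the means of 0.0683, and *Ifit3b*, with 1, 0 and 0 UMIs and 0.0521. *Ifit1bl1* had no UMI in cluster 10. *Ifit2*, at 60.2, 12.9 and 36.8 CPM, had a ratio of 0.117, *Rsad2*, at 85.0, 19.3 and 23.4 CPM, one of 0.1505, and *Isg15* one of 0.236. For *Ifit2*, *Ifit3* and *Rsad2* the WT library of cluster 10 was the highest of the 3, and each of its libraries lay below every library of cluster 7.

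**Figure D2:**
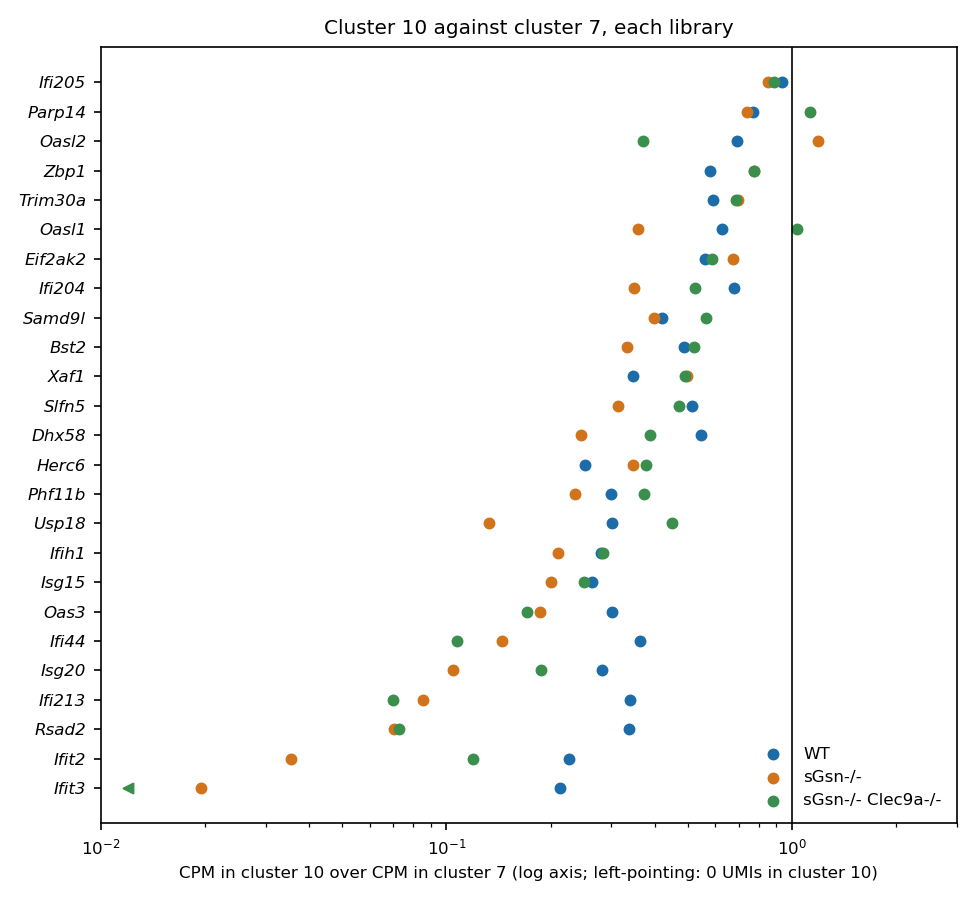
Ratio of the CPM in cluster 10 to that in cluster 7 for the 25 interferon-stimulated genes at 10 CPM or more, on a log axis, 1 point per library, with a left-pointing triangle where cluster 10 had 0 UMIs. *Ifi205* lies nearest to equal levels, at 0.849 to 0.936, and *Ifit3* farthest, at 0.0683 for the mean of the libraries.

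Cluster 8, marked by *Ccr7* at 2412, 2424 and 1166 CPM, was chosen for description after its values were seen. Against resting cDC1s, 8 of 25 ISGs at 10 CPM were at least 2-fold higher in all libraries, against 5.87% of genes, and 13 of 33, against 5.13%. *Isg15* stood at 687, 749 and 382 CPM and *Oasl1* at 132, 178 and 105 CPM. *Oasl1* thus overlapped its level in cluster 7, while *Isg15* reached less in each library. *Slfn5*, at 143, 212 and 140 CPM, *Ifi205*, at 256, 293 and 390.1 CPM, and *Trim30a*, at 145, 154 and 178.5 CPM, lay below their resting levels in each library, as did *Samd9l* and *Ifi44*. Genes of DNA sensing (0 of 4) were not among those called, while 3 of 5 IFIT and 3 of 5 OAS genes were. This difference between roles was not tested. *Ifi204* (folds of 2.14, 3.01 and 1.66) and *Ifi213* (3.98, 6.39 and 1.60) fell short of 2-fold in the *sGsn-/- Clec9a-/-* library alone. The *sGsn-/- Clec9a-/-* library was lowest for *Isg15*, *Oasl1* and *Ifit3* (7.76 CPM against 43.6 CPM in WT), and without it 13 of 25 ISGs were higher, against 8.11% of genes.

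Macrophage markers in cluster 8 summed to 321 CPM in the WT library and to 35.4 and 38.8 CPM in the other libraries, with 7 of 7 detected and *C1qa* the most abundant. NK cell markers summed to 13.6, 108.6 and 32.99 CPM, with 6 of 6 detected and *Gzma* the most abundant. The sort was set to leave out cells with surface NK1.1 or CD88. The part of macrophage and NK cell transcripts in the ISG levels of cluster 8 was not tested. Without cells carrying markers of another class the count was also 8 of 25, against 5.95% of genes. Of 255 cells only 4 held 2 or more macrophage markers and 2 held 2 or more NK cell markers. Leaving out so few cells cannot show what part these transcripts had. The resting cDC1s served as reference for clusters 7, 10 and 8 alike, so these comparisons share their denominators.

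Other genes of the pathway, taken from lists by role, moved less uniformly. Among receptor and signalling genes, *Stat2*, which encodes a transcription factor of the pathway and was chosen for description after its values were seen, stood at 219, 199 and 180.1 CPM in cluster 7, 195, 148 and 197.5 CPM in cluster 10 and 79.5, 70.9 and 68.2 CPM at rest. Its libraries in clusters 7 and 10 overlapped, and all lay above those at rest. The receptor gene *Ifnar1*, at 101, 86.7 and 96.9 CPM in cluster 7, against 80.0, 77.8 and 71.8 CPM at rest, was not called. *Socs1* and *Socs3*, which encode inhibitors of JAK signalling, were higher in cluster 10 than in cluster 7, *Socs1* at 230.3, 103 and 201 CPM against 34.6, 46.4 and 32.5 CPM.

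Of 6 interferon regulatory factor genes, *Irf7* and *Irf1* were called in both clusters. *Irf7*, whose product amplifies interferon responses, was at 1064, 1290 and 1030 CPM in cluster 7, 344, 335 and 432 CPM in cluster 10 and 113, 111 and 116 CPM at rest. *Irf1*, a known target of interferon gamma as well, was at 85.5, 85.7 and 82.1 CPM in cluster 7 but 751, 606 and 643 CPM in cluster 10, with 39.3, 36.2 and 35.8 CPM at rest. The pair thus took opposite orders in the 2 clusters, and neither overlapped between them. Of 10 nucleic acid sensors and adaptors outside the panel, 6 at 10 CPM, 0 were higher than at rest in either cluster, which is no result about them beside shares of 2.5% and 2.25% of all genes. Among them *Tlr3*, a receptor for double-stranded RNA that marks cDC1s, was lower in cluster 10 (49.6, 12.9 and 63.6 CPM) than in cluster 7 (227, 219 and 195.5 CPM). It is one of the cDC1 markers whose sum was also lower in cluster 10 than in cluster 7. The part of cells with cDC2 markers in the *Tlr3* level was not tested.

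A further list of 31 interferon-stimulated genes outside the panel, 27 at 10 CPM, had 23 higher in cluster 7 than at rest, against 2.5% of genes, and 4 in cluster 10, against 2.25%. The 4 were *Ifi47*, *Ifitm3*, *Slfn1* and *Slfn8*. Directly compared, 14 of 27 were higher in cluster 7 than in cluster 10, against 3.73% of genes, and 0 the other way, against 3.46%. The same shares apply to the next list. A list of 23 genes known to respond to interferon gamma, 10 at 10 CPM, had 6 higher in cluster 7 than at rest and 5 in cluster 10, but 4 higher in cluster 10 than in cluster 7 (*Igtp*, *Cxcl9*, *Cxcl10* and *Serpina3g*) and 0 the other way. *Cxcl10* stood at 1513, 1508 and 2450 CPM in cluster 10, against 132, 199 and 401 CPM in cluster 7. These lists overlap in biology, since many genes respond to both kinds of interferon.

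Genes encoding interferons were nearly silent in cDC1s, as 16 of 20 had no UMI in any library. *Ifnb1* had 6, 8 and 0 UMIs, each from 1 cell, and *Ifng* 9, 21 and 18 UMIs in 9, 21 and 15 cells. Over all barcodes of the matrices *Ifnb1* came to 11, 18 and 26 UMIs and *Ifng* to 2669, 3724 and 2906 UMIs. Counts of 0 limit only what these libraries could detect.

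Across the 36 sums of UMIs by cluster and library, genes outside the panel whose log2(CPM + 1) was among the most like that of the summed ISGs were *Irf7* (Pearson r = 0.934), *Ifi211* (0.890), *Ifi207* (0.861), *Ifi209* (0.847), *Samhd1* (0.834), *Lgals9* (0.820), *Ifi47* (0.812), *Acadl* (0.812) and *Slfn2* (0.811). Within the panel, *Zbp1* (0.913) and *Ifi204* (0.905) were closest to the sum that contains them, and *Samd9l* (0.338) and *Ifit1bl1* (0.387) farthest. The sums share libraries and clusters, and cluster 7 takes an extreme place in them, so the coefficients are a description.

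Single cells were compared after each was thinned at random to 3000 UMIs, which left out 48, 82 and 80 cells of lower depth. No doublet caller was run, and cells with markers of another class were left out only as an alternative. Cluster 7 cells held a median of 25 ISG UMIs, with quartiles of 18 and 36 and a range from 5 to 109 over 416 cells, and a median of 12 ISGs detected. Cluster 10 cells held a median of 13 (quartiles 8 and 18, range 3 to 42, 73 cells) and resting cDC1s one of 5 (quartiles 3 and 8, highest 35, 3438 cells). In cluster 7 the 3 library medians were 25, 26.5 and 23, and in cluster 10 none was above 13. More than 3 in 4 cells of cluster 7 thus lay above the upper quartile of resting cDC1s, and no thinned cell of cluster 7 was without ISG UMIs. Before thinning, the median per 10000 UMIs was 83.2 in cluster 7, 40.2 in cluster 10, 13.3 in cluster 8 and 18.2 in resting cDC1s.

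Cluster 8 differed in shape. Its median of 5 over all cells equalled that of resting cDC1s, but its library medians were 4, 4 and 5, against 5, 6 and 5 at rest. Its ninth decile was 19.6 and its highest cell held 77 ISG UMIs. Its coefficient of variation was 1.37, against 0.565 in cluster 7, 0.548 in cluster 10 and 0.680 at rest. By library the coefficient in cluster 8 was 1.59, 1.33 and 0.863. Relative to its mean, the spread in cluster 8 was thus the widest of these groups, while its quartiles of 2 and 11 lay closer together than those of cluster 7. In this cluster 50 of 255 cells were too shallow to be thinned.

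**Figure D3:**
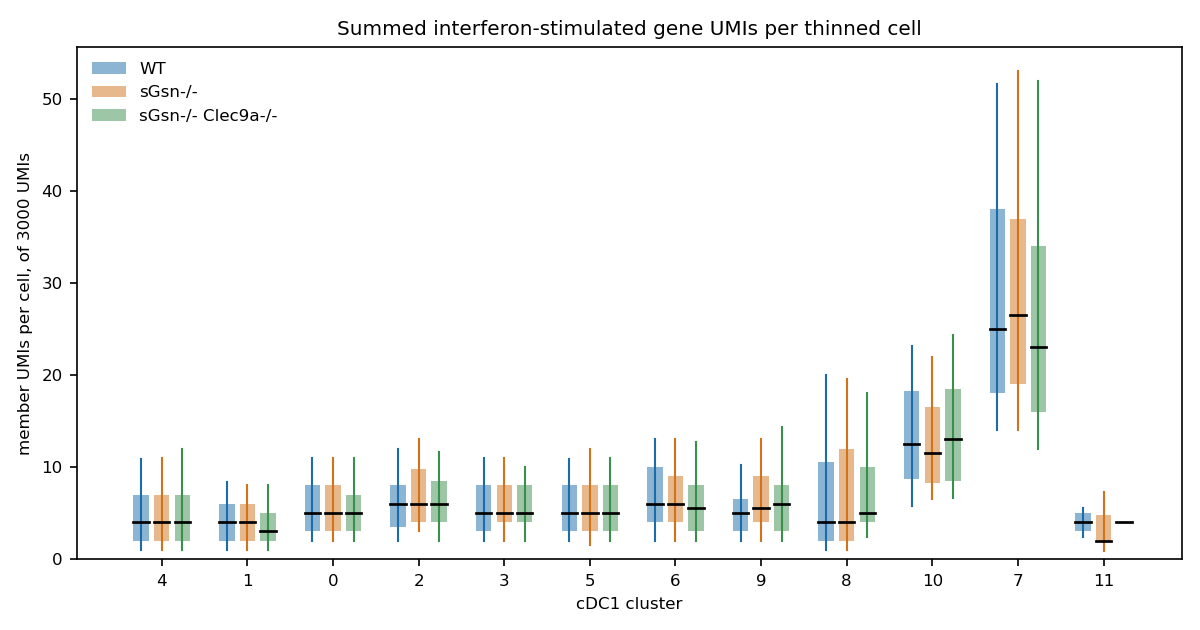
Summed UMIs of the interferon-stimulated genes per cell thinned to 3000 UMIs, by cDC1 cluster and library, with the median as a line, the quartiles as a box and deciles 1 to 9 as whiskers. The medians of cluster 7 (23 to 26.5) lie above those of cluster 10 (up to 13) and of every other cluster in each library.

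At the lower quartile of cluster 7, 18 UMIs, 316 of 416 cluster 7 cells (76.0%) reached the level, a share fixed by the choice of level. In cluster 10, 20 of 73 cells did (27.4%, exact Clopper-Pearson 95% interval 17.6 to 39.1). This and all later intervals cover counting error only. Outside both clusters 134 of 5107 cells did (2.62%, 2.20 to 3.10), at 2.43%, 3.20% and 2.33% in the 3 libraries. Of all 470 such cells 67.2% were in cluster 7. Cluster 8 held 27 of 205 (13.2%, 8.86 to 18.6), cluster 9 held 8 of 158 (5.06%, 2.21 to 9.73) and cluster 4, the early cells, 19 of 496 (3.83%, 2.32 to 5.92). By library the share in cluster 9 was 0%, 10.5% and 7.55%. Within 2 UMIs of the level lay 60 cells of cluster 7, 10 of cluster 10 and 111 outside both.

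Which ISGs the high cells carried was looked at after their values were seen. In cluster 4, *Ifit3* was detected in 42.1% of the 19 high cells and 0.210% of the others, and *Rsad2* in 57.9% and 2.31%. In cluster 8, *Isg15* made up 24.3% of the ISG UMIs of the 27 high cells, *Ifit3* was detected in 29.6% of them, and *Ccr7* in 88.9%. Among the other cells of cluster 8 these values were 15.35%, 1.12% and 79.2%. In resting clusters the 70 high cells had *Ifit3* in 1.43%, while *Slfn5* gave 19.4% and *Ifi205* 16.3% of their ISG UMIs. Since the cells were chosen on a sum that holds these genes, higher detection in them follows from the choice, and most high cells of clusters 4 and 8 had no *Ifit3* UMI. Cluster 4 also carried cDC2 markers, at 350.1, 310 and 347 CPM in sum, with 5 of 6 detected, *Cd209a* the most abundant, *Clec4a4* at 0, and 72 of 512 cells (14.1%) with 2 or more. *Xcr1* stood at 62.0 CPM there and was detected in 15.8% of its high cells and 7.13% of its other cells. The part of cDC2-like cells in these values was not tested.

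Detection of single ISGs was read beside *C1qa* and *Gzma*, genes of macrophages and NK cells that cDC1s should lack. At 3000 UMIs per cell *C1qa* was found in 1.92% of cluster 7, 2.74% of cluster 10, 3.90% of cluster 8 and 1.89% of resting cells, and *Gzma* in 3.61%, 6.85%, 4.88% and 3.40%. *Isg15* was detected in 89.4%, 43.8%, 44.4% and 16.5% of the same groups, well above these yardsticks in each. *Ifit3* was detected in 17.5% of cluster 7 but in 2.74% of cluster 10, 4.88% of cluster 8 and 0.145% of resting cells. The *Ifit3* shares in clusters 8 and 10 did not stand clear of the yardsticks, equalling *Gzma* in cluster 8 and *C1qa* in cluster 10. In cluster 8 the share was above that in resting cells of the same libraries at the same depth. Cluster 10 held 9 *Ifit3* UMIs in all, too few to describe further. Without thinning, at median depths of 14372, 15509.5 and 12571 UMIs in cluster 7, 12725, 11167 and 10369 in cluster 10 and 14423.5, 14749 and 12725.5 at rest, *Isg15* was found in 97.6%, 69.7% and 39.7% of cells, and *C1qa* in 9.01%, 3.95% and 7.80%. *Ifi205* was detected in 93.0% of cluster 7, 95.9% of cluster 10 and 71.6% of resting cells after thinning, and in 99.5%, every cell and 96.1% before.

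Within cluster 7 the ISGs were only loosely tied cell by cell. Over 416 thinned cells, 253 pairs of 23 ISGs had a median Spearman rho of 0.108, from -0.0944 to 0.468. The highest pairs were *Ifit2* with *Rsad2* (0.468), *Ifit2* with *Slfn5* (0.426) and *Ifit2* with *Oasl1* (0.400). Sparse counts lower such coefficients, and the cells share libraries.

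Genotypes were compared over all cDC1s with 1 library each, so that pool, library and genotype cannot be told apart, and the *sGsn-/-* library stands in both comparisons. Counting genes at which one library exceeded the other by at least 25%, 11 of 25 ISGs at 10 CPM were higher in *sGsn-/-* than in WT cDC1s, against 1.63% of genes, and 0 were lower, against 1.96%. The median log2 ratio of the 25 ISGs was 0.22 and that of all genes -0.00. In *sGsn-/- Clec9a-/-* against *sGsn-/-* cDC1s 2 were higher (*Oas3* and *Ifi44*), against 0.916%, and 5 lower, against 5.16%, with medians of -0.17 and -0.07. *Isg15* stood at 195 CPM (exact Poisson 95% interval 190.5 to 200.1) in WT, 265 CPM (258.5 to 271.6) in *sGsn-/-* and 198.5 CPM (192.6 to 204.6) in *sGsn-/- Clec9a-/-* cDC1s. *Oasl1* was at 18.03 CPM (16.6 to 19.5), 30.9 CPM (28.7 to 33.2) and 19.98 CPM (18.1 to 21.96). For both genes *sGsn-/-* was highest and the other genotypes were close together. The 5 lower in the second comparison were *Ifit2*, *Isg15*, *Oasl1*, *Oasl2* and *Ifih1*, all among the 11. Others of the 11 stayed closer to *sGsn-/-* than to WT. *Isg20* stood at 38.9, 52.2 and 51.4 CPM and *Rsad2* at 29.6, 44.8 and 39.6 CPM in the same order of genotypes.

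The mix of clusters differed between genotypes as well, and its part in the ratios was not tested beyond the weighting given here. Cluster 7 made up 6.65% (5.67 to 7.74), 7.83% (6.60 to 9.20) and 7.54% (6.35 to 8.86) of cDC1s, with overlapping intervals, and cluster 10 made up 0.907% (0.562 to 1.38), 1.58% (1.04 to 2.29) and 1.58% (1.05 to 2.27). Cluster 8 made up 3.63% (2.90 to 4.47), 6.66% (5.52 to 7.95) and 3.21% (2.44 to 4.13), highest in *sGsn-/-*. With each cluster given equal weight, 4 of 25 ISGs were higher in *sGsn-/-* than in WT cDC1s (*Ifit2*, *Oasl1*, *Oasl2* and *Ifih1*), against 3.62% of genes so weighted, and 1 lower (*Ifi44*), against 8.39%. In the other comparison 1 was higher, against 4.77%, and 2 lower, against 12.2%, which is no more than the share of all genes. Without clusters 7 and 10 the first comparison had 8 higher, against 1.58% of genes, and 0 lower, against 1.99%.

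To place the cDC1s among other cells of the matrices, barcodes were gated on markers. A gated cell had at least 2 markers of its class with at least 2 UMIs and at most 1 marker of any other. This gave 2155, 1554 and 1647 cDC1s, 2464, 992 and 1286 cDC2s, 1728, 612 and 956 macrophages and 884, 1410 and 1060 NK cells. Summed ISGs were at 2354, 2630 and 2309 CPM in gated cDC1s, 1458, 1656 and 1571 CPM in cDC2s, 1397, 1343 and 1216 CPM in macrophages and 862, 814 and 938 CPM in NK cells. Gated cDC1s thus lay above these 3 classes in each library, whereas 50, 50 and 51 gated plasmacytoid dendritic cells lay above cDC1s, at 3837, 4244 and 4162 CPM. Of these sums *Bst2* alone gave 2555, 2801 and 3233 CPM, against 281, 323 and 293 CPM in gated cDC1s. Without *Bst2* the plasmacytoid dendritic cells would lie below cDC1s in each library. All 3 comparisons share the gated cDC1s as reference.

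Tests used edgeR's quasi-likelihood fit on sums per library, with the library as a term, and Benjamini-Hochberg adjustment over 12868 genes. Of 33 ISGs, 11 were higher in cDC2s, against 29.5% of genes, and 18 lower, against 28.1%. In macrophages 12 were higher, against 30.9%, and 18 lower, against 31.9%, and in NK cells 4 were higher, against 36.9%, and 23 lower, against 34.3%. Shares of ISGs higher in cDC2s and macrophages were thus near those of all genes, while more were lower. The median log2 fold changes of the ISGs were -0.29, -0.30 and -1.14, against 0.00, -0.02 and 0.05 over all genes. Without the *sGsn-/- Clec9a-/-* library 2 ISGs were higher in NK cells, against 32.5% of genes.

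The sum hid genes that moved in opposite directions. *Ifi205* stood at 527.5, 581 and 485 CPM in gated cDC1s and 45.2, 63.2 and 35.1 CPM in cDC2s. By edgeR it was lower in cDC2s in 3 of 3 libraries, with a log2 fold change of -3.55 ± 0.121 (SE, n = 3, adjusted p = 1.09e-16), and in macrophages with -5.12 ± 0.1375 (n = 3, adjusted p = 8.7e-19). *Slfn5* was likewise lower in 3 of 3 libraries, by edgeR with -1.12 ± 0.075 in cDC2s (n = 3, adjusted p = 1.37e-11). *Rtp4*, a chaperone of receptors at the Golgi, was nearly absent from gated cDC1s, at 1.53, 2.07 and 1.14 CPM, and stood at 22.6, 19.8 and 23.5 CPM in cDC2s. By edgeR it was higher in cDC2s in 3 of 3 libraries, with 3.74 ± 0.157 (n = 3, adjusted p = 3.18e-15). *Ddx58* was at 2.94, 4.54 and 4.04 CPM in cDC1s, 22.7, 21.9 and 23.5 CPM in cDC2s and 37.6, 36.7 and 39.1 CPM in NK cells. *Isg15*, at 160, 228 and 150.3 CPM in cDC1s and 126.5, 140 and 126 CPM in cDC2s, differed less, by edgeR with -0.48 ± 0.131 in 3 of 3 libraries (n = 3, adjusted p = 0.00311).

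**Figure D4:**
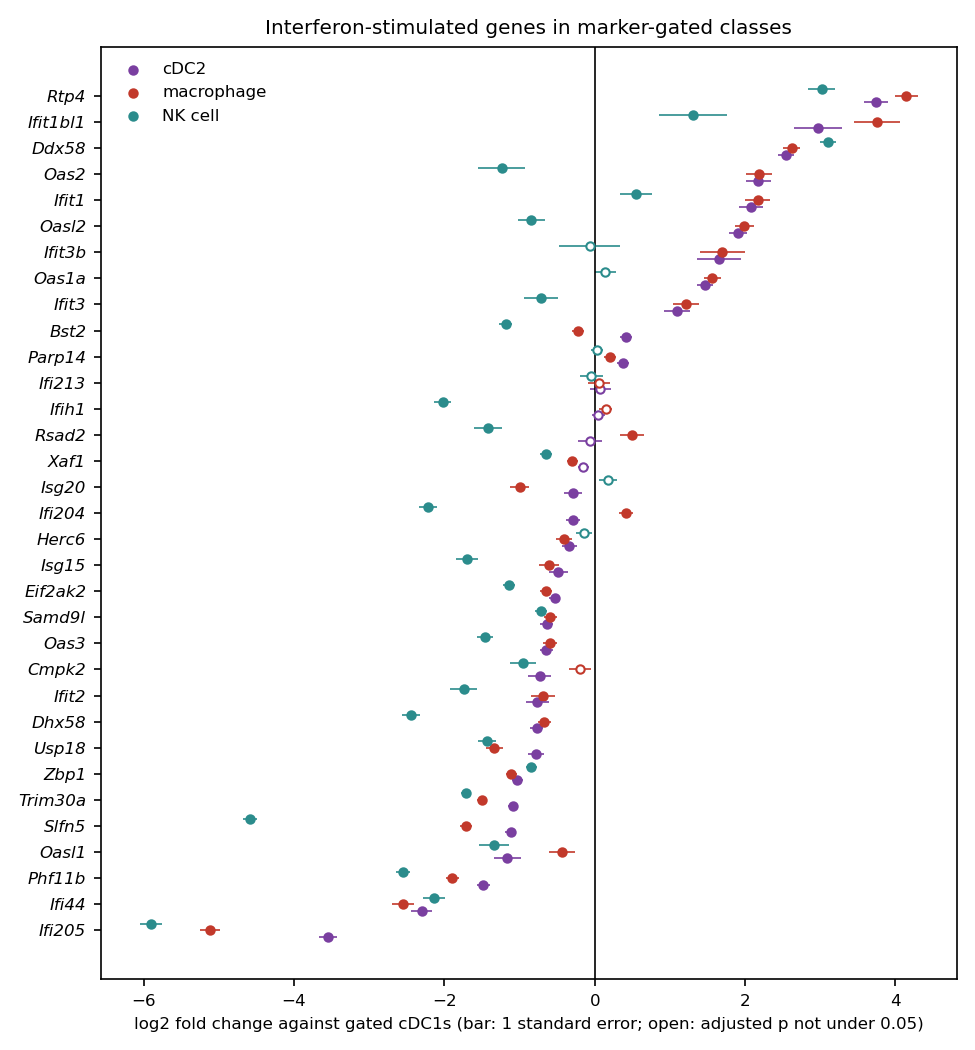
Log2 fold change of each of the 33 interferon-stimulated genes in gated cDC2s, macrophages and NK cells against gated cDC1s, from edgeR on 3 libraries, with bars of 1 SE and open symbols where the adjusted p was not under 0.05. *Ifi205* lies lowest, at -3.55, -5.12 and -5.90, and *Rtp4* is among the highest, at 3.74, 4.15 and 3.02.

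Many of the members hold a promoter motif bound by factors of the pathway they were chosen for. Its frequency among them is thus a description and no independent support. RefSeq promoters of 300 bases (GRCm38.p6, 250 before to 50 after the start) were matched for 26 of 33 genes and searched on both strands for the interferon-stimulated response element, spelled GAAANNGAAA, with overlapping matches counted, and for the gamma-activated sequence, spelled TTCNNNGAA. The first was found in 17 of 26 genes (65.4%), against 3.99% of 27025 genes and 3.44% of 32851 promoters, and the second in 5 (19.2%), against 9.55% of genes and 8.30% of promoters. Of the interferon gamma list 10 of 15 (66.7%) held the first and 8 of 15 (53.3%) the second. A match is a run of letters and no measured site. *Oasl1*, *Oasl2*, *Samd9l* and *Ifi44* were among those without a match to the first in this window. Promoters are printed 5′ to 3′ on the strand of the gene, with matches to the first motif in capitals, for genes strong in cluster 7 (*Isg15*, *Ifit3*, *Slfn5*, *Rsad2*), for the near copy *Ifit3b*, and for *Ifi205*, which differed least between clusters 10 and 7. They lie at chr4:156200769-156201068 (minus strand), chr19:34583279-34583578 (plus), chr11:82951852-82952151 (plus), chr12:26456403-26456702 (minus), chr19:34607707-34608006 (plus) and chr1:174031706-174032005 (minus), in that order.
Isg15: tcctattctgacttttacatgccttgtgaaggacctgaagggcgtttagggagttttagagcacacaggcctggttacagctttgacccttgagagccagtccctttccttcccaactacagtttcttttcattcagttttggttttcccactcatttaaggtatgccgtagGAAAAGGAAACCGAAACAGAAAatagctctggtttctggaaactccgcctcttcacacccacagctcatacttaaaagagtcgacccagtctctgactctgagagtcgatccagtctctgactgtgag
Ifit3: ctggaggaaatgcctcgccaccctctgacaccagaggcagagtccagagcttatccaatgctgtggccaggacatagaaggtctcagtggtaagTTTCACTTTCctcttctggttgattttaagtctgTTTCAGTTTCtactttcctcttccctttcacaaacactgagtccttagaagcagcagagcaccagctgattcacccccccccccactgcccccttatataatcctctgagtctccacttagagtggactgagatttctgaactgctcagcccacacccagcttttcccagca
Slfn5: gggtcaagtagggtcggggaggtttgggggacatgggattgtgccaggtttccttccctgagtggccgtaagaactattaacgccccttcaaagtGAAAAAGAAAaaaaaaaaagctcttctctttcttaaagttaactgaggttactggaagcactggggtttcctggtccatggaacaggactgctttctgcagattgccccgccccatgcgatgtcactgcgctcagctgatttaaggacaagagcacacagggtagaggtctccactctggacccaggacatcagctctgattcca
Rsad2: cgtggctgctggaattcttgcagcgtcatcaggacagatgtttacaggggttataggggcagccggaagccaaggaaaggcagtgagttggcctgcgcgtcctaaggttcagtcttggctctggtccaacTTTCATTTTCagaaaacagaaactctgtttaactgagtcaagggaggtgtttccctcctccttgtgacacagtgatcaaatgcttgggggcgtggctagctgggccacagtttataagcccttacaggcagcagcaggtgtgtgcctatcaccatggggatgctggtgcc
Ifit3b: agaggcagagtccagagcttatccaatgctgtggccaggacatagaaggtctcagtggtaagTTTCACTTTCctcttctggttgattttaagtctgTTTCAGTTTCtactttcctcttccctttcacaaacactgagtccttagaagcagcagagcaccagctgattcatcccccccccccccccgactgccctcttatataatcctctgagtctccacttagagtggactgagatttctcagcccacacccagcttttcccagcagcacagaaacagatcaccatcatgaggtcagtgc
Ifi205: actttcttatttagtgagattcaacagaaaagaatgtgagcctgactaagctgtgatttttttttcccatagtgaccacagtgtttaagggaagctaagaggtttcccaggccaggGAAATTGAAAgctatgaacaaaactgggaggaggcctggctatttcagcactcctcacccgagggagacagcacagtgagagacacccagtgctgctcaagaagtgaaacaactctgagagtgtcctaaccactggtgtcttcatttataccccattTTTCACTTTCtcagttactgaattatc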

How the data were processed

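The authors deposited unnormalised UMI counts as 1 matrix per library (Cell Ranger 6.0.1, mm10, which is GRCm38) and a table of cDC1s with the library, cluster and UMI and gene counts of each cell from Seurat. UMI totals in the table differed from the matrices in 431, 413 and 403 cells. UMIs were summed by cluster and library (36 sums) and scaled to CPM. Members and lists were chosen with earlier results of these data known. Genes were filtered at 10 CPM over all cDC1s, and folds used a floor of 3 UMIs per library.

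All members are named by role, with values per library for the 3 most abundant of a role, the highest and lowest ratio of cluster 10 to cluster 7 and members going another way, and genes among the 10 with the highest Pearson r, and results for some genes are left out. Tests between gated classes came from edgeR 4.0.16 under R 4.3.3, at an adjusted p of 0.05. Other values used Python 3.11.15, numpy 2.4.6, scipy 1.17.1 and pandas 2.3.3, and sequences were aligned with biopython 1.88. Gene positions are those of GENCODE M21 on GRCm38. Alternatives were TMM scaling, filters, folds, thinning depths and levels, minimum depths, equal weights of clusters or cells, and leaving out libraries, *Ifi205*, clusters 7 and 10, or cells with markers of another class. For gated classes they were DESeq2 1.42.0, no filter, no library block and a gate of 3 markers.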

Additional observations from a re-analysis of the deposited data

Results flagged for a closer look

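In cluster 10 against cluster 7, 3 of the 25 ISGs at 10 CPM went up in 1 library and down in the others, a difference between libraries that was not tested. *Oasl1* had a log2 ratio of 0.0454 in the *sGsn-/- Clec9a-/-* library (39 UMIs in cluster 10) and lay lower in cluster 10 in the other libraries. *Oasl2* had a log2 ratio of 0.25 in the *sGsn-/-* library (28 UMIs) and lay lower in the others. *Parp14* had a log2 ratio of 0.17 in the *sGsn-/- Clec9a-/-* library (54 UMIs) and lay lower in the others. Of the rarer ISGs *Oas2* did so as well, with 4 UMIs in cluster 10 of the *sGsn-/-* library and 1 in each of the others.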

How the results depend on the processing

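Of 143 alternatives to 22 results, 116 stayed within the spread or within 1.5 times the count and 27 did not. With a filter of 50 CPM only 12 ISGs were tested, and those higher than at rest were 11 in cluster 7 (2.54% of all genes), 3 in cluster 10 (2.0%) and 1 in cluster 8 (5.45%), those higher in cluster 7 than in cluster 10 were 7 (4.78%), and those past the fold between genotypes were 3 (*sGsn-/-* against WT, 1.87%) and 1 (3.41%). Of 25 ISGs, a fold of 1.5 gave 15 in cluster 10 (4.82%), 13 in cluster 8 (9.49%), and 4 (0.683%) and 1 (1.29%) between genotypes, and a fold of 4 gave 5 in cluster 8 (2.42%). Without a filter cluster 8 had 13 of 33. Without cells carrying markers of another class cluster 10 had 10. With clusters weighted equally the genotype counts were 5 and 3. TMM scaling gave summed levels of 10941 CPM in cluster 7 and 2268 CPM at rest, and leaving out *Ifi205* gave 8628, 3282 and 1585 CPM in cluster 7, cluster 10 and at rest. The share of high cells outside clusters 7 and 10 was 2.15% at 6000 UMIs and 0.842% at the median of cluster 7, where cluster 8 had 6.34% and cluster 4 had 2.02%. Leaving out 1 library at a time gave 24 to 25 ISGs in cluster 7, 8 to 12 in cluster 10, 8 to 13 in cluster 8, and 2 to 4 ISGs higher in NK cells. DESeq2 gave 11 ISGs higher and 15 lower in cDC2s, and the shares of all genes were not counted for it. Alternatives for clusters 8 and 4 were chosen after seeing the data. The cause of these shifts was not tested, and 21 to 28 cells per library limit cluster 10.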

Other observations

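Interferon transcripts came from few cells, chosen for description after their values were seen. In the *sGsn-/-* library 1 cluster 8 cell held 8 *Ifnb1*, 60 *Ifnl2* and 34 *Ifnl3* UMIs among 20389 UMIs, with 309 ISG UMIs. In the WT library 1 cluster 9 cell held 6 *Ifnb1* UMIs among 16285 UMIs, with 34 ISG UMIs. In gated plasmacytoid dendritic cells *Bst2* alone gave 2555, 2801 and 3233 CPM of the summed ISGs. Gated T cells (36, 74 and 73 barcodes) had summed ISGs of 1665, 2094 and 1908 CPM.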
